A study of Mus musculus with 8 samples.

Results

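The genes described here encode corepressors and coactivators of nuclear receptors, and they were chosen by name, as 9 of the 21728 protein-coding genes on mouse chromosomes 1 to 19 and X. They are Ncor1, Hdac3, Tbl1x, Tbl1xr1 and Gps2 of the corepressor complex, the coactivators Ncoa1, Ncoa2 and Ncoa3, and Med1 of the Mediator complex. Every region of the ATAC-seq lists that overlapped one of these genes, or lay within 10 kb of it, was counted. For Ncor1 only regions beyond the promoters at its annotated start sites were considered.

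The thyroid hormone receptor sits on its response elements with or without hormone. Without hormone it binds NCoR1, a scaffold that carries the histone deacetylase HDAC3, the WD40 proteins TBL1X and TBL1XR1, and GPS2, and this complex removes acetyl groups from histones. When T3 binds, the complex is exchanged for coactivators of the steroid receptor coactivator family, encoded by Ncoa1 to Ncoa3, and for Mediator, which MED1 ties to the receptor and through it to RNA polymerase. In hepatocytes the same proteins serve other nuclear receptors of lipid, bile acid and glucose metabolism.

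ATAC-seq measures open chromatin by the insertions of a transposase. Nuclei came from frozen livers of adult C57BL/6 mice, with 4 libraries of the genotype control and 4 of the genotype Alb-D2KO, in which Cre recombinase under the albumin promoter inactivates a floxed Dio2, the gene of the T3-producing type 2 deiodinase. Library titles mark the controls as cre, and sex and exact age were not given in the sources used here. Livers were not sorted, so fewer hepatocytes and less open chromatin per hepatocyte cannot be told apart, and since the lists hold only regions that differed, the tissue label could not be checked against marker genes. Regions were called once per genotype on grouped libraries, so no value has an error between mice and no test over mice can be made. The first list holds 8031 regions of reduced chromatin accessibility (RCA areas), which were called in the controls and were missing from the Alb-D2KO call. The second holds 250 regions with the opposite pattern, called in Alb-D2KO liver alone. The strength of a region is its area under the curve of −log10 p, and no RCA had an area under 200.004. A region within 200 bp of an annotated start site was called a promoter RCA (1560 regions), and the other 6471 lay beyond promoters, in exons, introns or intergenic sequence.

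RCA areas beyond promoters lay within 10 kb of 22.2% of the 9 coregulator genes. In all, 2 were found within 10 kb of the 9 genes, 1 beside Tbl1xr1 and 1 beside Ncoa3, and both lay outside the bodies of these genes. No RCA beyond promoters lay in any of the 9 gene bodies, which together span 1042 kb. Among all protein-coding genes, 19.8% had an RCA beyond promoters within 10 kb and 11.4% had one in the body. Genes with a body length within 25% of each member set the scale: if each member had behaved as its neighbours in length, 2.46 members would have had an RCA within 10 kb and 1.92 in the body, against 2 and 0 observed. So the count within 10 kb was close to that of genes of similar length. The median number of such RCA areas per gene was 0 for the members and 0 for all protein-coding genes, and the means were 0.222 and 0.307.

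The sequences of both regions are given because they are the only RCA areas beyond promoters counted within 10 kb of these genes, each as the summit with 100 bases on either side, on the plus strand of mm10 (read from GRCm38.p6). The first is chr3:22075119-22075319, upstream of Tbl1xr1, with 44.3% G and C. The second is chr2:166080579-166080779, past the end of Ncoa3, with 63.2% G and C. The median was 50.7% over the 6459 of the 6471 RCA areas beyond promoters that lie on chromosomes 1 to 19 and X. Capitals mark matches to the motifs searched.

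Tbl1xr1: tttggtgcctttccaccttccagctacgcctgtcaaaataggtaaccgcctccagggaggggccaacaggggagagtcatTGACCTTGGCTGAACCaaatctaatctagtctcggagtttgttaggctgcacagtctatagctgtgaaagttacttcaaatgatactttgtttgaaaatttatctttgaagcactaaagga

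Ncoa3: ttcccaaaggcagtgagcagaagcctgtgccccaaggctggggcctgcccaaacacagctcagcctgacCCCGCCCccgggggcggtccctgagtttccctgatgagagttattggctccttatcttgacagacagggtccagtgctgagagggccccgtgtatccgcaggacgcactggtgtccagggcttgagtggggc

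The window near Tbl1xr1 held the nuclear receptor half-site AGGTCA, read on the minus strand, as part of a direct repeat of half-sites spaced by 4 bases (DR4, the arrangement that thyroid hormone receptors prefer) when 2 mismatches were allowed. The half-site was in 26% of the 6459 windows of the same length around RCA areas beyond promoters, and the repeat in 5.25%. The window near Ncoa3 held GGGCGGG on the minus strand, the core that SP and KLF factors bind, which 4.03% of the windows had. Of the other motifs, both strands were searched for TGTTTAC (FOXA, 5.37% of windows), TTGCNNAA (C/EBP, 15.5%), CCGGAAG (ETS, 1.29%), AGGGGGC (the core of the CTCF site, 7.37%) and a repeat of half-sites spaced by 1 base (DR1, 10.5%, with 2 mismatches allowed), and neither window held them. These letters describe the sequence and do not show that a factor was bound there.

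Among the corepressor genes, Tbl1xr1 had the nearest RCA beyond promoters. Tbl1xr1 (chromosome 3 from 22076652 to 22216594, plus strand) encodes a subunit that takes part in the exchange of corepressors. Its RCA ran from 22074859 to 22075301 (443 bp) and ended 1351 bp before the gene. It overlapped an exon of the long non-coding RNA gene Gm43672, 841 bp from the start site of that gene. The area was 387, above 84.5% of all RCA areas beyond promoters, whose median was 272 (quartiles 230 and 342), and the −log10 q of the summit was 3.33. Of the 1149 genes of similar length, 351 (30.6%) had at least 1 such RCA. It was the only RCA beyond promoters within 100 kb of Tbl1xr1.

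The other corepressor genes had no RCA beyond promoters within 10 kb. Ncor1 (chromosome 11 from 62316426 to 62458541, minus strand) is 142 kb long and has 23 annotated start sites. Leaving out regions within 200 bp of any start site, which are not reported for this gene, no RCA lay in its body or within 10 kb. Of the 1133 genes of similar length, 31.1% had at least 1 RCA beyond promoters within 10 kb. The nearest was 91.2 kb upstream, overlapping an exon of Gm12279, with an area of 366. Around Hdac3, the gene of the deacetylase of the complex (chromosome 18 from 37935844 to 37955016, minus strand), the nearest RCA beyond promoters was intergenic, 58.8 kb upstream, with an area of 222. In genes of its length, 20.3% had one within 10 kb. Gps2, whose product joins HDAC3 and TBL1 to the complex, is short (2.70 kb, chromosome 11 from 69913888 to 69916591, plus strand) and lies among many genes. Its nearest RCA was intergenic, 17.7 kb past its end and 1363 bp from the start site of Ybx2, with an area of 316. Of the 1072 genes as short as Gps2, 14.2% had an RCA beyond promoters within 10 kb, and 80.7% had their nearest one farther away than Gps2. For Tbl1x (chromosome X from 77511013 to 77662983, plus strand), a close relative of Tbl1xr1, the nearest RCA beyond promoters was 4503 kb away, in an intron of Zfp185. Only 2.86% of the 1014 genes of similar length, taken from all chromosomes, were farther from one, and 32.25% had one within 10 kb. Chromosome X held 40 RCA areas in all, promoter RCA areas included. Of the wider list below, Med12 on chromosome X was 28266 kb from the same region in Zfp185. Med14, also on chromosome X, was 518 kb from its nearest RCA beyond promoters, but had 1 promoter RCA within 10 kb.

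**Figure D1:**
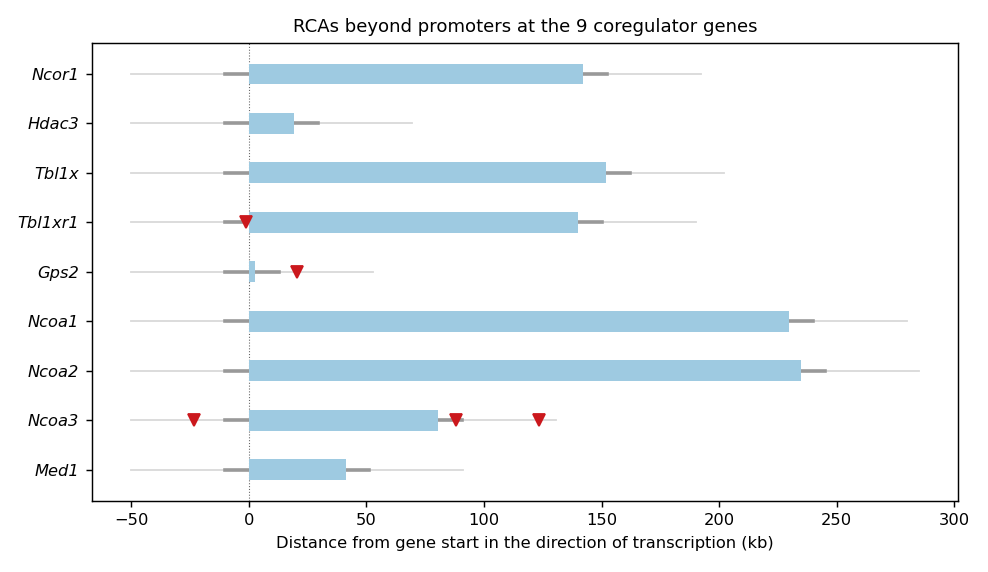
Map of each gene in the direction of transcription, with the distance from the gene start in kb on the horizontal axis. Bars are gene bodies, dark grey lines the 10 kb and light grey lines the 50 kb on either side, and red triangles the summits of RCA areas beyond promoters. Triangles lie within 10 kb of Tbl1xr1 and Ncoa3 among the 9 genes and in no body of theirs.

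Among the coactivator genes, Ncoa3 (chromosome 2 from 165992636 to 166073242, plus strand) had 1 RCA, from 166080569 to 166080774 (206 bp). It began 7327 bp past the end of Ncoa3, inside an intron of Sulf2, which encodes an extracellular sulfatase, and 2450 bp from a start site of Sulf2. Its area was 214, close to the lowest area in the list and above 12.4% of RCA areas beyond promoters, with a summit −log10 q of 3.0. Of the 1727 genes of similar length, 459 (26.6%) had at least 1. A window of 50 kb brought the count of Ncoa3 to 3. Ncoa1 (chromosome 12 from 4247362 to 4477182, minus strand) and Ncoa2 (chromosome 1 from 13139105 to 13374083, minus strand) are the longest members, at 230 and 235 kb, and had none. In genes of their length, 33.7% and 33.6% had at least 1 RCA beyond promoters within 10 kb. The RCA nearest to Ncoa1 overlapped an exon of Dnmt3a, 335 kb past the end of Ncoa1, with an area of 387. For Ncoa2 it was in an intron of Tram1, 200.8 kb upstream, with an area of 325. Med1 (chromosome 11 from 98152154 to 98193293, minus strand), which carries the receptor-binding motifs of Mediator, also had none, and the nearest was intergenic, 76.5 kb past its end, with an area of 249. In genes of its length, 23.4% had one within 10 kb.

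**Figure D2:**
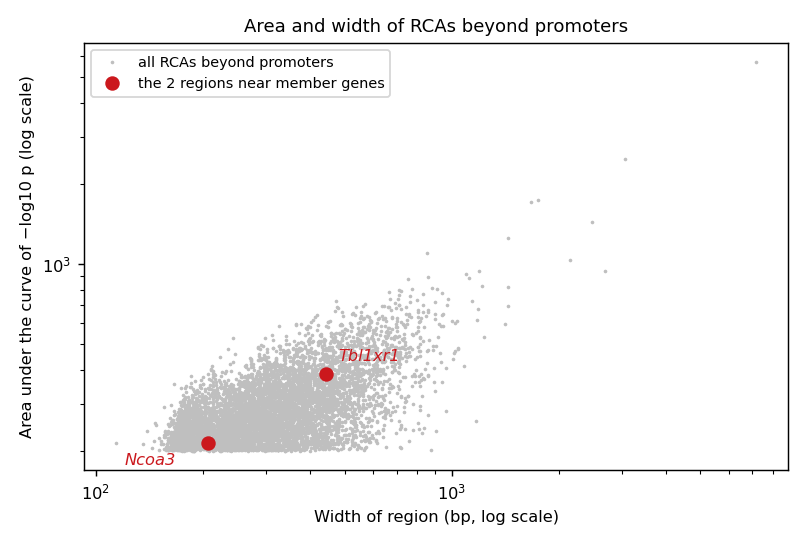
Area under the curve of −log10 p against width for RCA areas beyond promoters, both on log scales. Each grey dot is 1 RCA, and red circles are the regions near Tbl1xr1 (443 bp, area 387) and Ncoa3 (206 bp, area 214).

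Leaving out Ncor1, none of the 8 remaining genes had a promoter RCA within 10 kb, against 9.58% of all protein-coding genes. Of the 250 regions called in Alb-D2KO liver alone, none lay within 10 kb of the 9 genes, where 1.02% of protein-coding genes had one, and none lay within 100 kb. With 9 genes, such counts of 0 say little about genes of this kind. Within 50 kb, 3 of the 9 genes (Tbl1xr1, Gps2 and Ncoa3) had an RCA beyond promoters, against 38.1% of all protein-coding genes and 3.70 members by the genes of similar length.

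The lists do not show whether a gene without an RCA was open in control liver. The peak caller numbered the control regions, and the numbers run along the genome, so that the gap between the numbers of neighbouring RCA areas counts the control regions that were kept between them, if every missing number is a region that overlapped one of the Alb-D2KO call. Around every one of the 9 genes, the stretch between the first RCA areas of any class past the 10 kb on either side held kept control regions, from 3 at Ncoa2 to 13 at Tbl1xr1. By the numbering, only 35.9% of all control regions were lost, so kept regions are common around genes and no trait of these 9. The share of all protein-coding genes with a kept region in their stretch was not counted. The shortest stretches place these most closely. Between the RCA areas flanking Ncoa3, 147 kb with 2 protein-coding genes held 5 kept regions beside the RCA described above. Around Med1, 270 kb with 4 protein-coding genes held 6. Around Gps2, 168 kb with 18 protein-coding genes held 10, or 59.7 per Mb, above the upper quartile of 17.7 for all protein-coding genes (median 7.12).

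In the longer stretches the positions of the kept regions are unknown. For Ncor1 the stretch of 970 kb with 13 protein-coding genes held 11 kept regions. For Hdac3, 1211 kb with 66 genes held 9, and for Ncoa1, 931 kb with 16 genes held 7. These are 11.3, 7.43 and 7.52 per Mb, and the values of Hdac3 and Ncoa1 were close to the median of 7.12 for protein-coding genes. Ncoa2 had 1.16 per Mb over 2581 kb, Tbl1xr1 1.79 over 7265 kb and Tbl1x 0.353 over 11347 kb, these 3 under the lower quartile of 2.47. In these stretches the kept regions cannot be placed at the coregulator gene rather than at a neighbour.

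**Figure D3:**
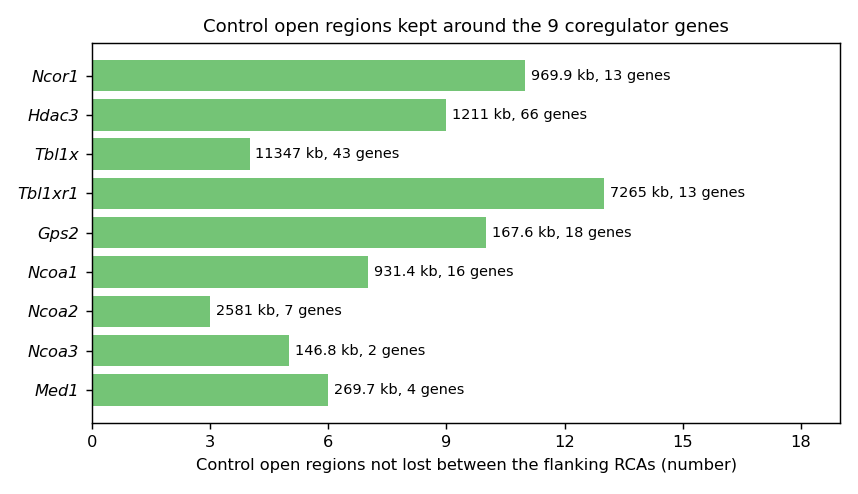
Number of control open regions kept in Alb-D2KO liver in the stretch between the RCA areas flanking each of the 9 genes with 10 kb on either side. Labels give the length of the stretch and how many protein-coding genes it overlaps. Counts run from 3 at Ncoa2 to 13 at Tbl1xr1, over stretches of very unequal length.

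A wider list of 38 coregulator genes was counted in the same way. It was chosen with earlier results of these data known, so its shares are description only. RCA areas beyond promoters were near 16 of them (42.1%, against 19.8% of all protein-coding genes), where genes of similar length would give 9.21. The count was 9 (4.32 by similar length) with an area of at least 300, and 10 (6.07 by similar length) with a promoter window of 3000 bp. The 31 regions were 24 intronic (77.4%, against 49.7% of all RCA areas beyond promoters), 3 exonic and 4 intergenic. Counting at gene bodies favours introns by design. Of the 31 regions, 23 lay in the body of the listed gene, spread over 13 genes (34.2%, against 11.4% of all protein-coding genes). The median area of the 31 regions was 274. Promoter RCA areas were near 7 of the 38 genes (18.4%, against 9.58%), among them Ep300, the gene of an acetyltransferase that coactivators recruit. The body and promoter shares were not set against genes of similar length. Many listed genes are longer than the protein-coding median of 17.4 kb. The mean count was 0.816 per gene, and 9 of the 31 regions belonged to Ppargc1b and Smarcd1.

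The genes with the most RCA areas beyond promoters among the 38 are named first, so small shares beside them follow in part from that choice. Ppargc1b, a coactivator of mitochondrial and lipid genes, had 5, all intronic, where 0.935% of the 1497 genes of similar length had as many. Smarcd1, a subunit of the SWI/SNF chromatin remodeller, had 4 within 10 kb (0.383% of 2872 genes had as many), of which 2 lay outside it, in the neighbouring Gm16537 and, for 1 of them, also in Gpd1. Arid1a, of the same remodeller, and Med13l, of the Mediator kinase module, had 3 each. Of genes of similar length, 4.42% had as many as Arid1a and 7.91% as many as Med13l. A region counted at Arid1a lay 7594 bp outside it, in an intron of Pigv. The acetyltransferase gene Crebbp, the deacetylase genes Hdac1 and Hdac2, and Ncoa6 were among the 22 without any. Among the 38 genes, the single region called in Alb-D2KO liver alone was at Ppargc1a, which directs gluconeogenesis and mitochondrial biogenesis. It lay in an intron 39.7 kb from the gene start, on chromosome 5 from 51527874 to 51528280, with an area of 300.5 against a median of 226 in that list.

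**Figure D4:**
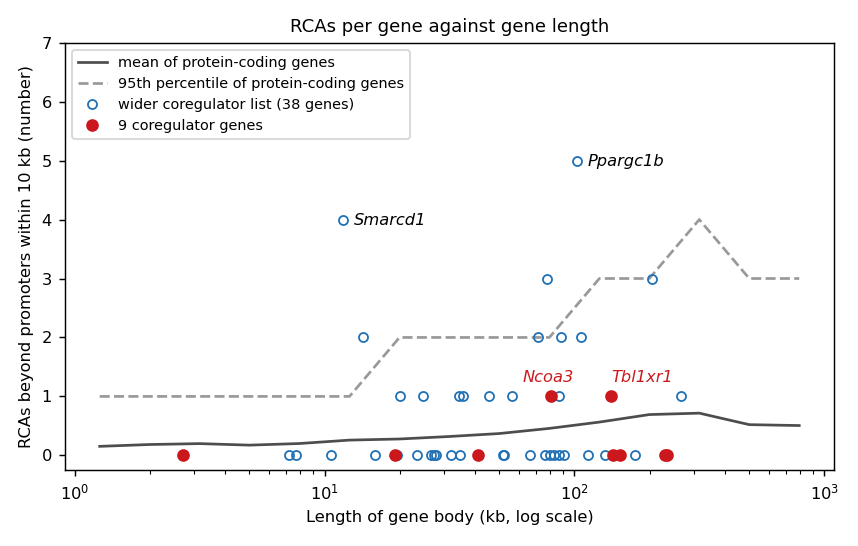
Number of RCA areas beyond promoters within 10 kb of a gene against the length of the gene body on a log scale. Red points are the 9 coregulator genes and open blue points the 38 genes of the wider list, and lines give the mean and the 95th percentile of protein-coding genes by length. Of the red points 7 lie at 0 and 2 at 1, while Ppargc1b lies at 5.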

How the data were processed

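ATAC-seq libraries of 4 control and 4 Alb-D2KO livers were studied. The authors aligned reads to mm10 with BWA 0.7.17, removed chimeric, duplicate and low-quality alignments, called regions with Genrich 0.6 on grouped libraries, leaving out a blacklist built from single-library calls, and subtracted regions that overlapped one of the other genotype. The deposited lists give a signal (the area under the curve of −log10 p), the −log10 q of the summit (the −log10 p was not used here), and a score, which is a scaled area per bp with a ceiling and was not otherwise used. The lists carry no read depth, and no counting interval can be had.

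From there, regions were classed in the order promoter (within 200 bp of a start site), exon, intron, intergenic with GENCODE M21, not the release that the methods name, and counted with an overlap of 1 bp, or within 10 kb of the gene. Genes of similar length had a body within 25% of it. The regions of a call are numbered along the genome, and no number occurred more than once. Sequences came from the RefSeq copy of GRCm38.p6, and 8 motifs were searched. Counting code was tested on simulated data (Python 3.11.15, pandas 2.3.3). No test was run, since genes and regions are not mice. All 9 genes are named, with the wider list given by counts and the highest values. 1 gene of that list is not reported here and is left out of its counts. Members and lists were chosen with earlier results of these data known.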

Additional observations from a re-analysis of the deposited data

How the results depend on the processing

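With so few regions, small changes of the settings moved the counts. The 2 RCA areas near 2 of the 9 genes became 0 with gene bodies alone or a promoter window of 3000 bp. The count was 1 with a distance of 5 kb, an area of at least 300 or a promoter window of 1000 bp. A distance of 50 kb gave 5 RCA areas near 3 genes. Letting the midpoint of a region decide its class and distance gave 3 near 3 genes, as did a distance of 20 kb. Both genes were above the median of genes of similar length, but that median was 0, so any gene with 1 RCA is above it. In every setting the count of genes above the median equalled that of genes with an RCA, and so was no separate check. The median area has no value where no RCA is left. Promoter RCA areas outside Ncor1 rose from 0 to 1 with the window of 1000 bp and to 2 with 3000 bp, since the regions near Tbl1xr1 and Ncoa3 then count as promoters. The wider list fell from 16 genes to 9 with an area of at least 300 and to 10 with the window of 3000 bp. No Alb-D2KO-only region appeared near the 9 genes under the 10 alternatives that bear on it. Of 71 values under 13 alternatives, 51 stayed within 1.5 times the reported count or, for the median area, within the spread of the 2 regions. That spread was a standard deviation of 123 around a median of 301. With no area under 200.004, a fall of the median could not count as moved. Of these 51, 7 came from merging regions within 100 bp, which merged 0 regions and so tested nothing. No library could be left out, since calls were pooled. No paired analysis was possible because the lists hold no value per library.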
